A study of Mus musculus with 8 samples.

Results

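The genes described here were chosen by name, not by a measured value, but with earlier results of these data known. They are 10 genes of the glucocorticoid and metallothionein response: Nr3c1, Fkbp5, Tsc22d3, Sgk1, Dusp1, Tat, Zbtb16, Mt1, Mt2 and Lpin1as. Of these, 9 had a probe on the array, 1 probe each, among 42982 features tested, and Lpin1as was not analysed here. Liver RNA of male mice was hybridised to 1-colour custom Agilent expression arrays, with Cy3 label and 4 arrays in each of 2 genotypes. One genotype is named Ltg/NZO.5.3N/B in the labels (NB; arrays 2, 3, 5 and 8) and is set against the genotype Ltg/NZO.5.3N/N (NN; arrays 1, 4, 6 and 7). The names mark a segment of 5.3 Mbp on chromosome 18, and the strain label for both genotypes is NZO/HiBomDif ex C57BL/6J. The New Zealand Obese (NZO) mouse is a model of polygenic obesity. All mice ate a high-fat diet with 45% of fat and were 5 weeks old. Whether the 8 arrays come from 8 animals is not spelled out in the labels, and the p-values then cover only the spread between these samples, which may in part be technical.

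Glucocorticoids reach the liver cell through the blood and bind the glucocorticoid receptor, the product of Nr3c1, which then enters the nucleus and binds DNA at palindromic response elements. In liver the receptor is known for switching on genes of gluconeogenesis and amino acid breakdown, and the hormone rises with the daily rhythm, fasting and stress. Metallothioneins are small cysteine-rich proteins that bind zinc and copper, and their genes are induced by metals through the factor MTF1 at metal response elements and, in mouse liver, also by glucocorticoids.

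The Mt1 and Mt2 probes are shown because the results turn on these genes and because their products are similar. Each is written 5′ to 3′ with TGC and TGT, the cysteine codons in any reading frame, in capitals. The Mt1 probe has 46 bases and the Mt2 probe 45.
Mt1: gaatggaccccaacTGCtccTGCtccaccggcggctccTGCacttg
Mt2: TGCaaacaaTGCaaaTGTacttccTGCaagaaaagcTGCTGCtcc
The longest run that the 2 probes share is 7 bases, and in their best gapless alignment 22 of 44 positions match. Whether either probe also binds the other transcript was not tested.

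Sequences before the listed transcription start came from RefSeq (assembly GRCm38.p6). Of the 9 measured genes, 7 were searched, and Nr3c1 and Zbtb16 were not. There were 14 windows of 300 bases (250 before the start and 50 after it), since Sgk1 and Tsc22d3 have several starts. The 250 bases before the start are shown for Mt1 and Mt2, which moved together, and for the Sgk1 start whose window holds a palindromic element, each on its plus strand. Capitals mark the metal response element cores TGCACNC and TGCGCNC and the palindrome of the glucocorticoid response element (GNACA, any 3 bases, TGTNC), searched on both strands.
Mt1, chr8:94178839-94179088: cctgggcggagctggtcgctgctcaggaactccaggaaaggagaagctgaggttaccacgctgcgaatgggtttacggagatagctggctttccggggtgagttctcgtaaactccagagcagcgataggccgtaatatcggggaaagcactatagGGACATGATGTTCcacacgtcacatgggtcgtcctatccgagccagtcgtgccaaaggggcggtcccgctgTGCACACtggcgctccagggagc
Mt2, chr8:94172368-94172617: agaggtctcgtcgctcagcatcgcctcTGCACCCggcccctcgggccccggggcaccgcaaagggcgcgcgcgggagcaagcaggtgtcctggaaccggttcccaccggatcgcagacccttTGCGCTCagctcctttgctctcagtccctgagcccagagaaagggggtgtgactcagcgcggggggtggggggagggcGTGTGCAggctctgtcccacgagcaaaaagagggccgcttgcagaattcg
Sgk1, chr10:21993640-21993889: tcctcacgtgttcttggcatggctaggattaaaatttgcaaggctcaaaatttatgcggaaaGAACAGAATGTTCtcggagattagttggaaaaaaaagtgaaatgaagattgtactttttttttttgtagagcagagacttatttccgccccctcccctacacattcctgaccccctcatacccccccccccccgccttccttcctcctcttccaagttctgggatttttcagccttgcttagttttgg
The 300-base window of Mt2 held 4 metal response cores, at positions -223, -128, -50 and 5 from the start, and that of Mt1 held 3, at -23, 3 and 21. Of all 32851 promoter windows, 0.517% held at least 4 and 1.97% at least 3, while 25.7% held at least 1. The palindrome stood at -94 in Mt1 and at -188 in this Sgk1 window, and 0.475% of all windows held it. The Dusp1 window held the cyclic AMP response element TGACGTCA at -143, found in 1.79% of windows. The single windows of Fkbp5 and Tat held none of these motifs, nor the shorter AGAACA, which 19.0% of windows held. A match of letters is not a site, and no match says only that these letters are not in this window.

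Signals are given as the log2 processed signal minus the 75th percentile of that array, so that 0 is the 75th percentile over all probes. Differences on this scale are log2 fold changes, and levels of different probes cannot be set against each other. Across arrays the 75th percentile lay between 445.0 and 584.4 intensity units, and 74.4% to 79.6% of probes stood well above background. The mean correlation of an array with the other 7, across features, was 0.990 for NB 8 and 0.993 to 0.994 for the others. NB 8 thus stood apart from the other NB arrays by Dixon's test, by a small margin of correlation. The main differences and correlations among the 9 genes that rest on it are given with and without it. So is the count of other glucocorticoid-responsive genes that followed Tsc22d3. Most correlations of single other genes are given only with NB 8 included. Of the 10 hepatocyte markers 9 had a probe, and all 9 were well above background on all 8 arrays. All 9 response genes were also well above background on all 8 arrays, and all 9 passed the filter of at least 4 such arrays.

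Nr3c1, the receptor gene, had a narrow range among the 9 genes, though its SD within genotypes was near the median of all features (53.9th percentile). Among features of similar signal Nr3c1 stood at the 70.6th percentile of SD, and with normexp background correction at the 87.7th of all features. Its log2 signal was 3.32, 3.04, 2.95 and 2.97 on the NB arrays, against 3.22, 3.01, 2.75 and 3.05 on the NN arrays. The groups overlapped, and the highest and lowest of the 8 arrays were 1.48-fold apart. The means were 3.07 ± 0.17 in NB and 3.01 ± 0.19 in NN (SD, n = 4 each).

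Fkbp5 encodes an HSP90-bound immunophilin that lowers the receptor's affinity for hormone and is itself a receptor target. Its log2 signal was 1.16, 1.18, 1.80 and 1.91 in NB, against 1.28, 0.79, 2.35 and 0.75 in NN. The highest and the lowest array were both NN arrays, NN 6 and NN 7, 3.03-fold apart.

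Tsc22d3 (GILZ), a leucine zipper protein that mediates part of the anti-inflammatory action of glucocorticoids, had log2 signals of 3.09, 2.99, 3.29 and 3.99 in NB, against 3.44, 4.12, 3.69 and 3.76 in NN. Of the NB arrays 3 lay below every NN array, while NB 8 lay above all NN arrays but NN 4. Dusp1, a phosphatase that switches off mitogen-activated protein kinases, had log2 signals of 0.19, -0.55, 0.31 and 1.51 in NB, against 0.32, 1.93, 0.64 and 1.14 in NN. Again the first 3 NB arrays lay below all NN arrays and NB 8 lay above all NN arrays but NN 4. The range over 8 arrays was 5.59-fold for Dusp1 and 2.19-fold for Tsc22d3.

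Tat encodes tyrosine aminotransferase, the classical hepatic enzyme induced by glucocorticoids. Its log2 signal was 4.31, 3.97, 4.52 and 5.05 in NB, against 4.54, 4.83, 4.65 and 4.66 in NN. The 4 NN arrays lay close together and the NB arrays on either side of them, with a 2.11-fold range in all. Sgk1, a kinase that controls ion transport, had log2 signals of 1.61, 2.13, 2.05 and 2.79 in NB, against 2.16, 3.16, 2.09 and 2.26 in NN. NN 4 and NB 8 were again the highest arrays, and NB 2 was the lowest.

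Zbtb16 (PLZF), a zinc finger repressor that responds to glucocorticoids in many cell types, had log2 signals of 0.80, 0.63, 0.88 and 0.70 in NB, against 0.54, 0.70, 0.76 and 0.83 in NN. Its whole range was 1.26-fold, the narrowest of the 9 genes.

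Mt1 and Mt2 differed most between arrays among the 9 genes. Mt1 had log2 signals of 3.66, 5.92, 5.29 and 5.38 in NB, against 5.43, 4.79, 2.69 and 4.25 in NN. In processed intensity units these were 7395, 31026, 19260 and 19515 in NB, against 23156, 14263, 2873 and 9324 in NN, none of them saturated. NB 3 was the highest and NN 6 the lowest, 9.36-fold apart, and each genotype had both high and low arrays. Mt2 had log2 signals of 2.29, 5.00, 4.33 and 4.49 in NB, against 4.49, 3.62, 1.31 and 2.59 in NN, a 12.9-fold range. NB 3 was again the highest and NN 6 the lowest, and NB 2 stood below the other NB arrays in both genes.

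**Figure D1:**
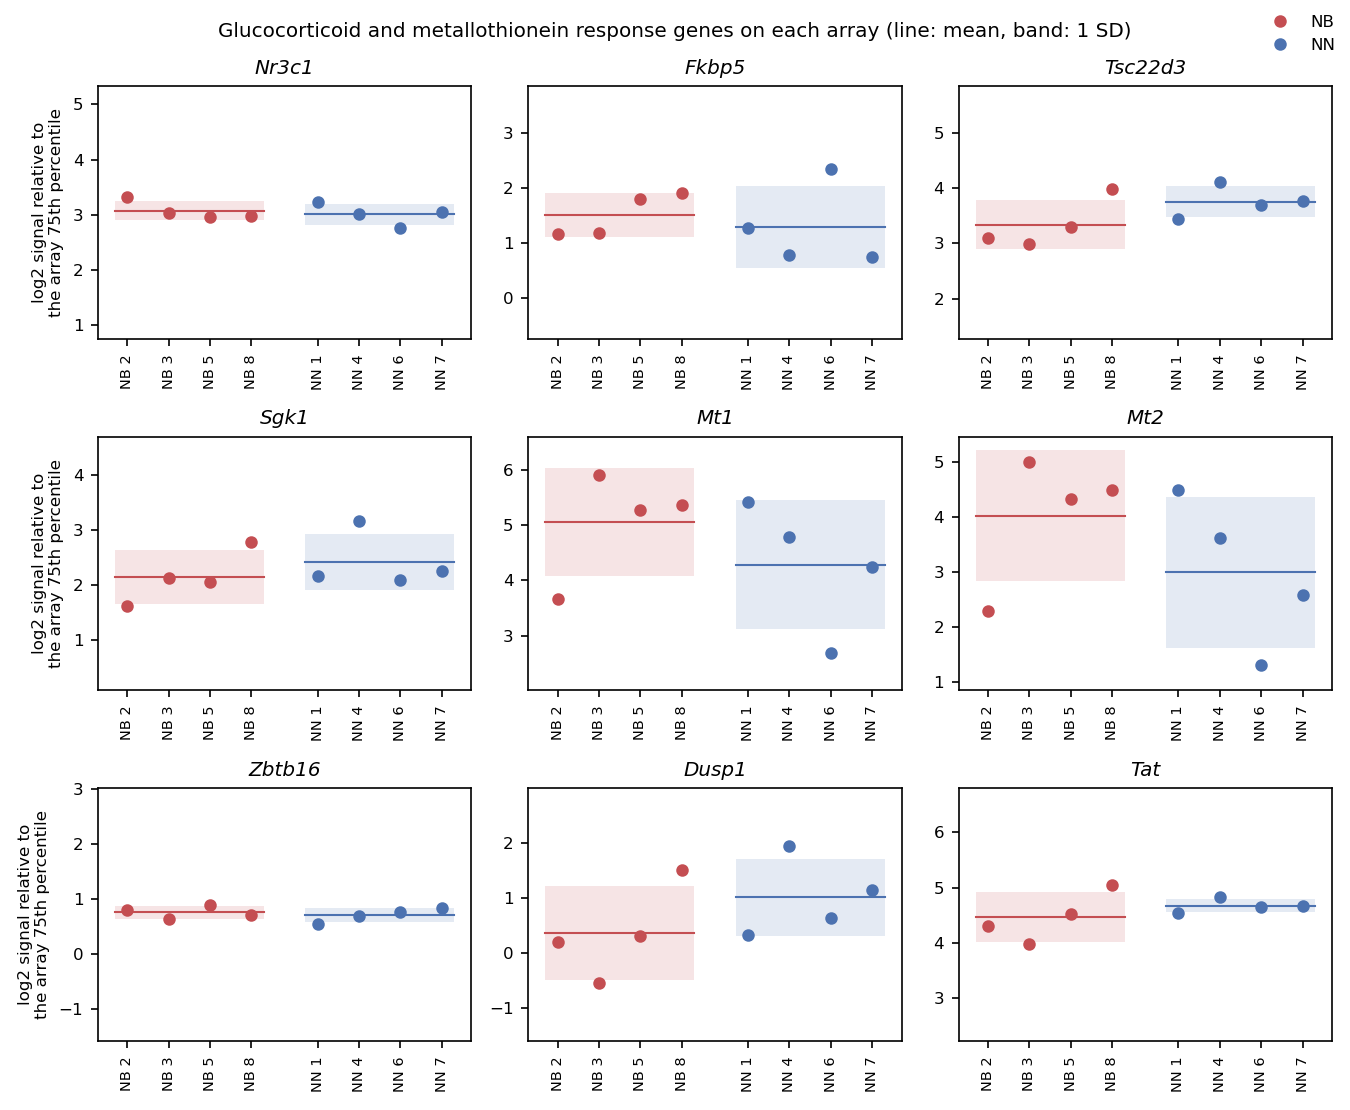
The log2 signal relative to the 75th percentile of the array (vertical axis, each panel spanning the same number of log2 units) is plotted for each array, with NB arrays (red) left of NN arrays (blue), lines at the genotype means and bands of 1 SD. The genotypes overlap in all 9 genes; Mt1 and Mt2 spread widest, and Nr3c1 and Zbtb16 least.

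The comparison between genotypes asks whether the segment goes with another level of these genes. Nr3c1 lies on chromosome 18, as the segment does, and the other measured genes lie on other chromosomes. Whether Nr3c1 lies in the segment, or its probe covers a sequence difference between the genotypes, was not tested. No difference passed the test: limma's adjusted p over all features was 1 for each of the 9 genes, and 0 of 9 had an unadjusted p under 0.05. Of all 42982 features, 0.00698% were called at an adjusted p under 0.05 and 1.69% had an unadjusted p under 0.05 (0.738% higher and 0.956% lower in NB). In 0 of the 9 genes did all arrays of one genotype lie beyond all arrays of the other, against 0.426% of all features with NB above and 0.731% with NB below. The log2 fold change, NB minus NN, was positive in 5 genes and negative in 4, while 45.9% of all features were positive and 54.1% negative, with a median of 0.05 over the 9 genes (-0.02 to 0.07 with single arrays left out) and -0.01 over all features.

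The metallothioneins had the largest positive differences. Mt2 averaged 4.03 ± 1.20 in NB and 3.00 ± 1.37 in NN (SD, n = 4 each), a log2 fold change of 1.03 with a standard error of 0.76 and a 95% interval of -0.69 to 2.75 (exact permutation p = 0.286, two-sided). Mt1 averaged 5.06 ± 0.97 in NB and 4.29 ± 1.17 in NN, a difference of 0.77 with an interval of -0.67 to 2.21 (exact permutation p = 0.400). Both intervals hold changes of several fold in one direction and decreases in the other, so the data bound these genes only loosely. Leaving out NN 6, the array with the least of both, took the difference to 0.24 for Mt1 and 0.46 for Mt2.

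Of the 9 genes, Dusp1 had the largest negative difference. It averaged 0.36 ± 0.85 in NB and 1.01 ± 0.70 in NN (SD, n = 4 each), a log2 fold change of -0.64 with an interval of -1.69 to 0.41 (exact permutation p = 0.257). The difference was -0.41 for Tsc22d3 (interval -0.93 to 0.10), -0.28 for Sgk1 (-0.95 to 0.40) and -0.21 for Tat (-0.67 to 0.25). Without NB 8 these differences were -1.02 for Dusp1, -0.63 for Tsc22d3, -0.49 for Sgk1 and -0.41 for Tat, and limma's adjusted p was still 1 for all 4. Fkbp5 had a difference of 0.22 (-0.59 to 1.03), Nr3c1 of 0.06 (-0.22 to 0.35) and Zbtb16 of 0.05 (-0.16 to 0.26). The differences of Nr3c1 and Zbtb16 turned negative when single arrays were left out (to -0.02 for Nr3c1 without NB 2 and also without NN 6, and to -0.01 for Zbtb16 without NN 1). In simulated data of the same size, 14% of changes of 0.5 on the log2 scale, 70% of changes of 1 and 98% of changes of 2 were called. These shares are for features drawn from the whole array, whose median SD was 0.17. They do not hold for Mt1, Mt2 and Dusp1, whose SDs were 0.78 to 1.29. Nor do they hold for Fkbp5 (0.60), Sgk1 (0.49), Tsc22d3 (0.37) and Tat (0.33). The simulation also held 50 changed features of each size, while 3 features were called in the data. More true changes loosen a Benjamini-Hochberg threshold, so the shares may be too high for these data.

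**Figure D2:**
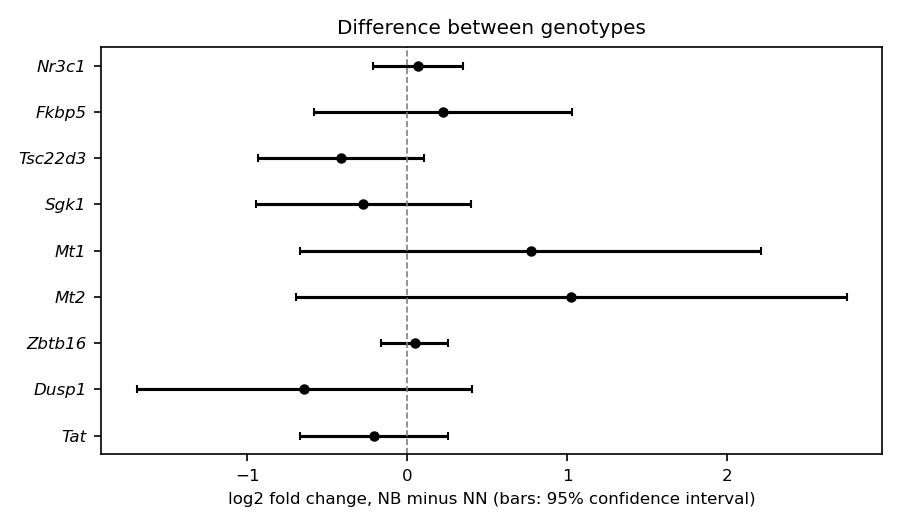
The log2 fold change of each gene, NB minus NN (horizontal axis), is drawn as a point with its 95% confidence interval. All 9 intervals hold 0; those of Mt2 and Mt1 are the widest and those of Zbtb16 and Nr3c1 the narrowest.

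The 9 genes varied more within genotypes than most features, which is a description, since they were chosen with earlier results of these data known. Their median residual SD was 0.49 on the log2 scale, against 0.17 over all features, whose 90th percentile was 0.39. Above that percentile lay 5 of the 9 genes: Mt2 (SD 1.29), Mt1 (1.08), Dusp1 (0.78), Fkbp5 (0.60) and Sgk1 (0.49). Tsc22d3 (0.37), Tat (0.33) and Nr3c1 (0.18) lay above the median of all features, and Zbtb16 (0.12) below it. With normexp background correction, Nr3c1 was at the 87.7th and Zbtb16 at the 67.1st percentile of all features. Bright features vary less than dim ones on this array, and among features of similar signal Mt1, Mt2 and Dusp1 stood at the 99.8th, 99.9th and 99.7th percentile of SD. The SD of Fkbp5 was 0.36 without NN 6, and those of Tsc22d3 and Tat were 0.24 and 0.20 without NB 8, so in these 3 genes 1 array carried much of the spread.

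**Figure D3:**
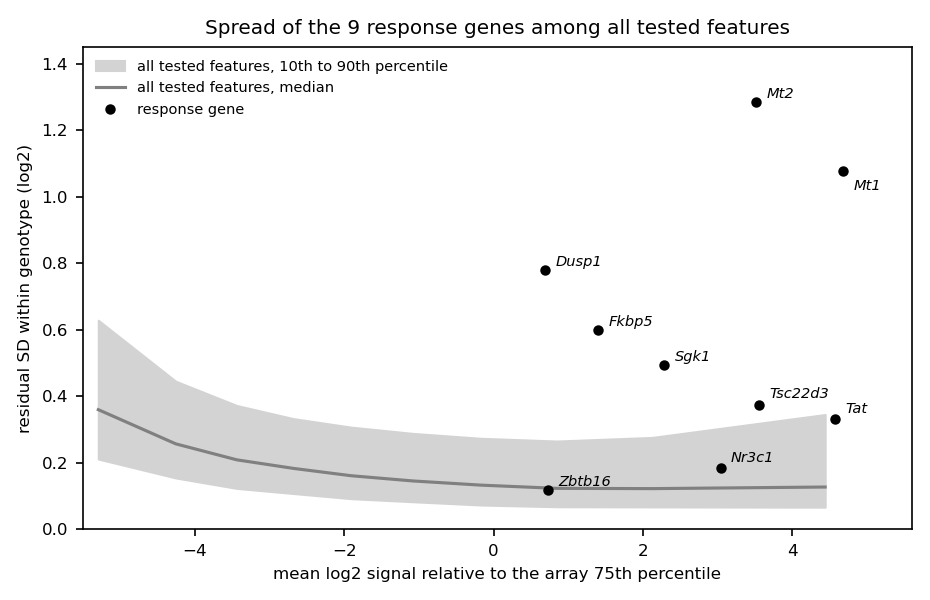
The residual SD within genotype (vertical axis, log2 units) is plotted against the mean log2 signal relative to the 75th percentile of the array for the 9 genes (points), over the 10th to 90th percentile of all tested features in 10 classes of signal (grey band) and their median (grey line). Mt2 at 1.29 and Mt1 at 1.08 lie far above the band, and Zbtb16 lies at the median line.

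Across the 8 arrays the genes fell into separate patterns. All 36 pairs of the 9 genes were correlated, with exact permutation p-values adjusted over the 36 pairs, and 5 pairs had an adjusted p under 0.05 for Pearson's r. Mt1 and Mt2 ran almost in parallel (r = 0.990, rho = 0.976, exact permutation p = 5.0e-05, adjusted p = 0.00134), and r was 0.990 again without the 2 outermost arrays. High in both genes were NB 3, NN 1, NB 8 and NB 5, and low were NN 6 and NB 2.

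Tsc22d3, Dusp1 and Tat made a second pattern. Tsc22d3 and Dusp1 ranked the 8 arrays in the same order (r = 0.962, rho = 1, exact permutation p = 7.4e-05, adjusted p = 0.00134), with r = 0.930 without the 2 outermost arrays. Tat followed Tsc22d3 (r = 0.917, rho = 0.976, exact permutation p = 4.0e-04, adjusted p = 0.00476) and Dusp1 (r = 0.906, rho = 0.976, exact permutation p = 0.00243, adjusted p = 0.0219). NN 4 and NB 8 were the highest arrays and NB 3 the lowest in Tsc22d3 and Dusp1. Tat had the same lowest array and the same 2 highest, with NB 8 first. Sgk1 went with Tsc22d3 less closely (r = 0.843, exact permutation p = 0.0056, adjusted p = 0.0404; rho = 0.810, adjusted p = 0.131). The r of Sgk1 with Dusp1, 0.808, rested on NN 4 and NB 8 and was 0.28 without them. Within genotypes, with each group's mean removed, r was 0.990 for Mt1 and Mt2, 0.960 for Tsc22d3 and Dusp1, and 0.924 for Tsc22d3 and Tat. Without NB 8, r over 7 arrays was 0.990 for Mt1 and Mt2, 0.954 for Tsc22d3 and Dusp1, 0.911 for Tsc22d3 and Tat, 0.903 for Dusp1 and Tat and 0.807 for Tsc22d3 and Sgk1.

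For Fkbp5 no relation to either pattern passed the test: its r was 0.00 with Tsc22d3 (exact permutation p = 0.993) and -0.28 with Mt1 (exact permutation p = 0.501). Without the outermost arrays, NN 6 and NB 8, these were -0.60 and 0.40, so 8 arrays do not settle either relation. Its highest array, NN 6, was the lowest of all for Mt1, Mt2 and Nr3c1. Fkbp5 and Nr3c1 tended in opposite directions (r = -0.611, rho = -0.667), but the exact permutation p was 0.110 and 0.496 after adjustment, and r was -0.32 without the 2 outermost arrays. Mt1 had an r of -0.15 with each of Tsc22d3, Dusp1 and Tat, too small to tell from 0 with 8 arrays. Without NN 6 and NB 2, the r of Mt1 was -0.67 with Dusp1 and -0.52 with Tat. Without NB 3 and NN 4 it was 0.09 with Tsc22d3, so 8 arrays do not settle these relations either. NB 3, for example, had the most Mt1 and Mt2 of all arrays and the least Tsc22d3, Dusp1 and Tat.

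**Figure D4:**
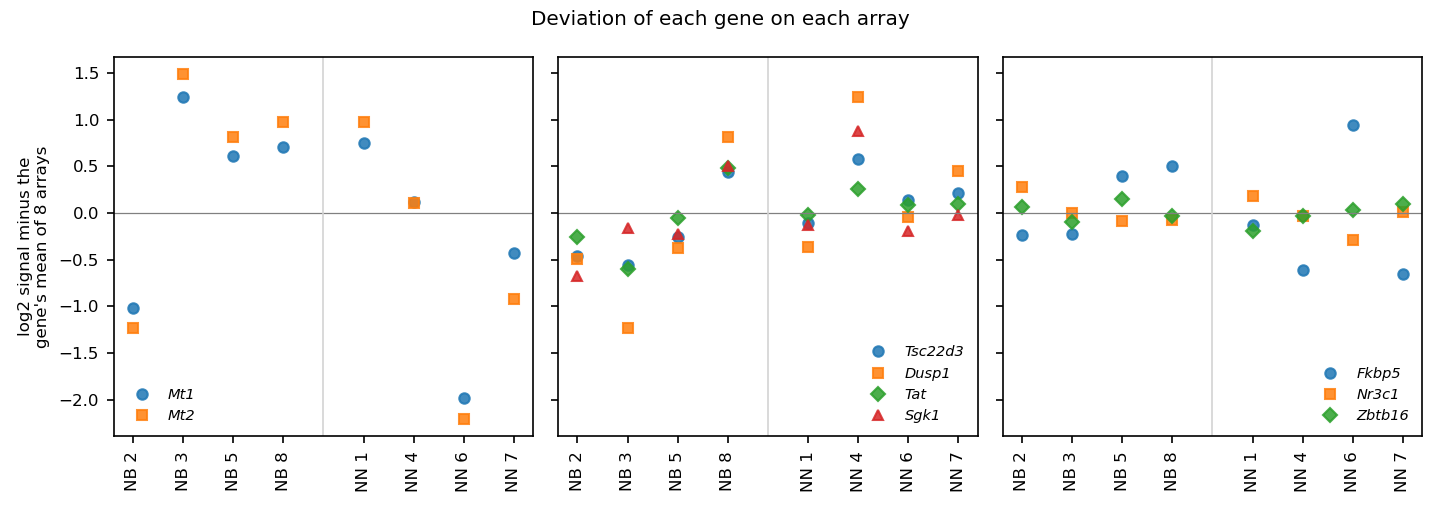
The log2 signal of each gene minus its mean of 8 arrays (vertical axis) is plotted for each array, NB left of NN, in 3 panels for Mt1 and Mt2, for Tsc22d3, Dusp1, Tat and Sgk1, and for Fkbp5, Nr3c1 and Zbtb16. Mt1 and Mt2 lie close together on each array, NB 8 and NN 4 stand highest in the second panel, and Fkbp5 stands apart on NN 6.

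Other known glucocorticoid-responsive liver genes were read for the same pattern. Of 30 such genes, all measured, 10 had an r above 0.7 with Tsc22d3 after the genotype means were removed (33.3%), against 3.60% of all 42511 features measured on every array. Among them were Klf9 (r = 0.959) and Klf15 (r = 0.909), which encode Krüppel-like factors, Cebpb (r = 0.922), which encodes a CCAAT-binding factor of gluconeogenic genes, and G6pc (r = 0.903), which encodes the glucose-6-phosphatase that releases glucose. Per1, a clock gene (r = 0.897), Ddit4, an inhibitor of the kinase mTOR (r = 0.860), and Lpin1, a phosphatidate phosphatase (r = 0.835), were others, with Cebpd, Nfkbia and Igfbp1. Rhob and Gadd45b ran the other way (r = -0.726 and -0.734), 6.67% of the list, against 8.10% of all features below -0.7. Other lists also held followers of Tsc22d3 above 0.7: 3 of 15 clock genes and 3 of 16 immediate early genes (Jund, Jun and Junb). Without NB 8 the count above 0.7 was 5 of 30, against 3.39% of all features, and without any other single array it was 10 to 12. The r values of the named genes and the clock and immediate early counts include NB 8. Which of these genes stay above 0.7 without it is not given, so single followers may rest on that array. These correlations are descriptions over 8 arrays that share their scaling. The list was chosen with earlier results of these data known, and the threshold after the data were seen.

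On the arrays themselves, Lpin1 had a log2 signal of 3.05 on NB 8 and of 0.70, -0.24 and 0.22 on the other NB arrays, against 0.40, 0.74, 0.54 and 1.18 in NN. Per1 had 0.56, -0.15, 0.84 and 2.08 in NB, against -0.01, 1.11, 1.23 and 1.05 in NN. G6pc had 4.09, 3.60, 4.72 and 5.09 in NB, against 4.50, 5.57, 5.17 and 5.17 in NN. NB 8 was the highest array for Lpin1 and Per1, and NN 4 for G6pc, while NB 3 was the lowest for all 3. The mean deviation of the 30 genes from their own means was -0.18, -0.19, -0.12 and 0.30 in NB, against -0.07, 0.17, 0.01 and 0.09 in NN, so NB 8 stood above all other arrays.

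**Figure D5:**
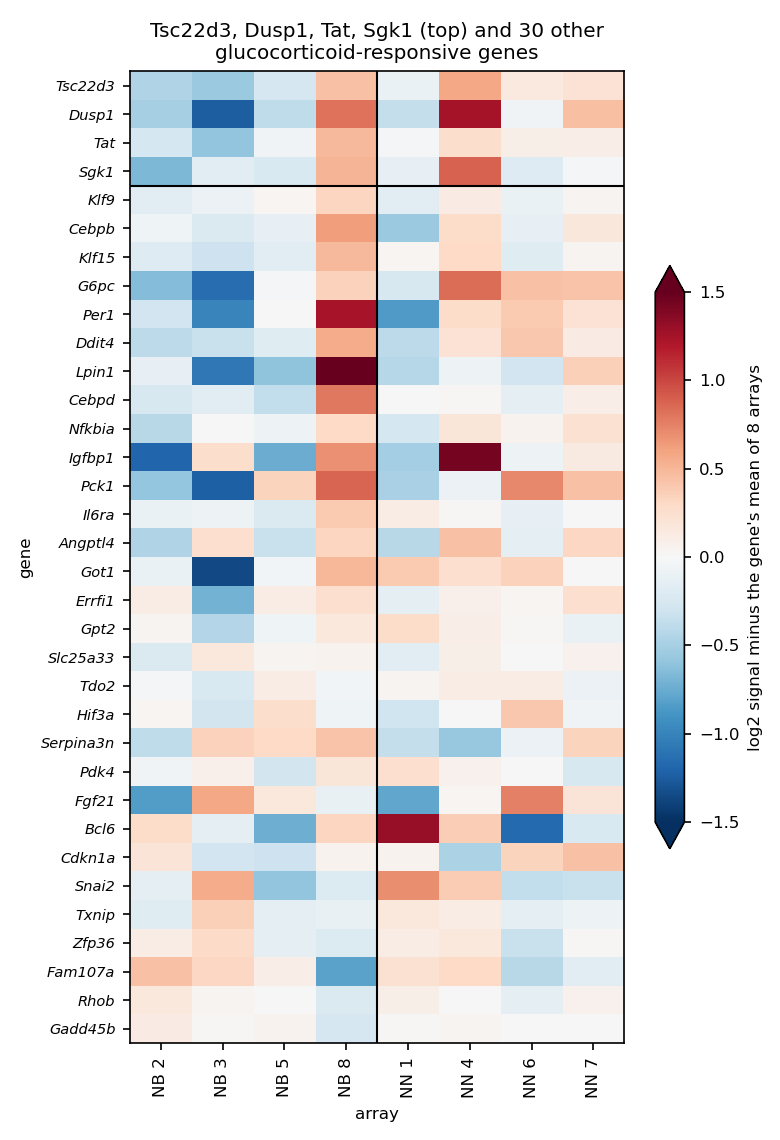
Colour gives the log2 signal minus the gene's mean of 8 arrays (red above, blue below) for Tsc22d3, Dusp1, Tat and Sgk1 at the top and 30 other glucocorticoid-responsive genes below, ordered by their correlation with Tsc22d3, with NB arrays left of NN arrays. NB 8 is red and NB 3 mostly blue in the upper rows, where 10 genes have r above 0.7; NB 8 is also the highest array for Pck1, Il6ra, Got1 and Errfi1 further down, and the lowest for Fam107a, Rhob and Gadd45b at the bottom.

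For Mt1 and Fkbp5 the counts of such followers were near the shares of all features. Of the 30 genes, 1 had an r above 0.7 with Mt1 (3.33%; Txnip, an inhibitor of thioredoxin, r = 0.712), against 3.77% of all features. With Fkbp5 0 had one, against 3.01%. With single arrays left out the count was 0 to 3 for Mt1, against 4.69% to 12.1% of all features. For Fkbp5 it was 0 to 1, against 4.07% to 8.85%. Below -0.7 were Hif3a with Mt1 (r = -0.727), against 1.64% of all features, and Zfp36 and Rhob with Fkbp5 (r = -0.861 and -0.707), against 3.71%. Among 16 zinc and metal handling genes, Mt4, another metallothionein gene, followed Mt1 (r = 0.946). The probe of Mt4 gave log2 signals of 2.24, 3.47, 3.05 and 3.10 in NB, against 3.08, 2.77, 2.21 and 2.46 in NN, with NB 3 highest and NN 6 lowest as for Mt1 and Mt2. Whether this probe also binds the transcripts of Mt1 or Mt2 was not tested. The zinc importer gene Slc39a10 (r = -0.787) and the manganese exporter gene Slc30a10 (r = -0.707) ran opposite to Mt1, while Slc30a1, a zinc exporter gene that MTF1 also induces, had r = 0.427 and Mtf1 itself 0.033. None of the 19 acute phase genes had an r above 0.7 with Mt1: the acute phase genes deviated by -0.41, 0.51, 0.31 and 0.31 on average in NB, against -0.53, -0.54, 0.06 and 0.30 in NN, and NN 1, with much Mt1, was among the arrays with the least of them.

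With Fkbp5 went Crp, an acute phase gene (r = 0.853), while Hsd11b1, whose enzyme regenerates active glucocorticoid inside liver cells, ran opposite (r = -0.879). Both varied little, with residual SDs of 0.068 and 0.096, against a median of 0.17 over all features. Crp was 1 of 19 acute phase genes above 0.7 (5.26%), against 3.01% of all features. Hsd11b1 was 1 of 9 genes of its list below -0.7 (11.1%), against 3.71%, and Abcb1a of that list went with Fkbp5 (r = 0.724). Of all named genes screened (23623), the most like Mt1 over the 8 arrays, centred within genotype, were Gm29942 (r = 0.991), Camk1g, a calmodulin-dependent kinase gene (r = 0.990), and Xrn2, an exonuclease gene (r = 0.980). The range of Camk1g was 5.86-fold, while that of Gm29942 was 1.59-fold and that of Xrn2 1.19-fold. The most like Fkbp5 were Trim24 (r = 0.976), a transcription cofactor gene, E030024N20Rik (r = 0.974) and Zfp428 (r = 0.971), with ranges of 1.47-fold, 1.30-fold and 1.41-fold. Such values are the extremes of all genes screened and are given as a description.

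The other genes of these pathways did not pass the test between genotypes either: in the 8 lists described here, 0 genes were called in each direction. Of 16 receptor chaperones and coregulators 5 had a positive and 11 a negative log2 fold change, with a median of -0.05. Those with the smallest p were Ppargc1b, a coactivator gene (0.35 ± 0.20, SE), Nr3c2, the mineralocorticoid receptor gene (0.15 ± 0.13), and Ppid, a cyclophilin gene (-0.12 ± 0.09). Of 9 genes of glucocorticoid metabolism and transport 2 were positive and 7 negative (median -0.12). Serpina6, the corticosteroid-binding globulin gene, was at -0.24 ± 0.14 (SE), Srd5a2, a steroid reductase gene, at -0.19 ± 0.10, and Hsd11b2, whose enzyme inactivates glucocorticoid, at 0.34 ± 0.20.

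Of the 30 glucocorticoid-responsive genes 8 were positive and 22 negative, with a median of -0.06 against -0.01 over all features. G6pc averaged 4.37 ± 0.66 in NB and 5.11 ± 0.44 in NN (SD, n = 4 each; exact permutation p = 0.143), a log2 fold change of -0.73, Got1, an aspartate aminotransferase gene, was at -0.50 ± 0.34 (SE; -0.13 without NB 3) and Serpina3n, a secreted protease inhibitor gene, at 0.34 ± 0.23. Of 16 metal handling genes 10 were positive and 6 negative (median 0.01): Mt4 was at 0.33 ± 0.27, Cp, the ceruloplasmin gene, at 0.17 ± 0.10 and Mtf1 at -0.14 ± 0.08. Of 16 immediate early genes 5 were positive and 11 negative (median -0.04): Jun was at -0.49 ± 0.43 (-0.09 without NN 4), Egr1 at -0.48 ± 0.66 and Ier3 at 0.09 ± 0.11.

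Among 17 paralogs of the 9 genes, 7 positive and 10 negative (median -0.03), Tsc22d1 had every NB array below every NN array. It averaged 5.56 ± 0.08 in NB and 5.81 ± 0.04 in NN (SD, n = 4 each), a log2 fold change of -0.25, with an exact permutation p of 0.0286, the smallest that 4 against 4 arrays allow, and an adjusted p of 1 with limma. Dusp8, a dual specificity phosphatase gene, was at -0.25 ± 0.12 (SE) and Tsc22d2 at 0.11 ± 0.09. Of 15 clock genes 5 were positive and 10 negative (median -0.01). Nfil3, a repressor of clock output genes, also had every NB array below every NN array (1.23 ± 0.24 in NB and 1.62 ± 0.06 in NN, SD, n = 4 each; exact permutation p = 0.0286, adjusted p of 1 with limma). Arntl, the BMAL1 gene, was at -0.29 ± 0.14 (SE) and Per3 at 0.17 ± 0.13. Within genotypes Nfil3 and Arntl ran opposite to Tsc22d3 (r = -0.936 and -0.867), while Per1, Dbp and Nr1d2 ran with it (0.897, 0.846 and 0.767). With the genotype means kept, r over the 8 arrays was -0.050 for Nfil3, -0.231 for Arntl, 0.76 for Per1, 0.44 for Dbp and 0.68 for Nr1d2. Without NB 8, the r of Nfil3 with the means kept was 0.558. The opposition of Nfil3 and Arntl was thus clear only with the means removed.

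Of 19 acute phase genes 16 were positive and 3 negative, with a median of 0.25 and 0 called, while 45.9% of all features were positive. Saa3, a serum amyloid gene, was at 1.22 ± 0.69 (SE), Lcn2, the lipocalin 2 gene, at 0.79 ± 0.41 and Orm1, an orosomucoid gene, at 0.44 ± 0.25. Kupffer cell and macrophage markers were positive in 9 of 10 genes (median 0.20, 0 called). Both lists had their lowest mean deviations on NN 4, NN 1 and NB 2. These were -0.54, -0.53 and -0.41 for the acute phase genes and -0.33, -0.30 and -0.16 for the macrophage markers. The sign counts thus need not be of independent genes. Csf1r, the receptor gene for the macrophage growth factor CSF1, had every NB array above every NN array (log2 fold change 0.46 ± 0.08, SE; unadjusted p = 0.000284 and adjusted p of 1 with limma), the smallest p in the lists, and it was singled out after its values were seen. The summed linear level of the Kupffer cell and macrophage markers, relative to the 75th percentile, ranged from 76.8 to 97.1 in NB and from 67.4 to 86.6 in NN. Csf1r is part of this sum, and bright probes weigh most in such sums. The hepatocyte markers summed to 1474 to 1669 in NB and 1507 to 1670 in NN. In bulk liver RNA, fewer cells of a type and less RNA per cell cannot be told apart. The part of other cell types in the values of the 9 genes was not tested. Nor was it tested whether Csf1r or other listed genes lie in or near the segment.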

How the data were processed

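Spots of the 8 scanner files were read with Feature Extraction (Agilent) 11.5.1.1, per the file headers. Version 9.1 is the one in the submitters' processing notes. Their processed signal, per the file headers, is a linear intensity, background-subtracted and spatially detrended, that was not normalized between arrays. The authors' deposited value table, used as an alternative, holds linear intensity values whose 8 columns are the same once sorted (59448 rows, median 84.2), with scale and direction of centring unstated. The 8 arrays lay on 1 slide, whose 4 columns each held 1 array of each genotype.

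Of 60273 probes, 31064 were named by accession, without version, through the RefSeq gene table of GRCm38.p6, giving 26698 genes. Control spots were left out, and outlier spots (248 to 621 per array) were set to missing; 0 spots were saturated. The log2 processed intensity, computed from the deposited values, had the 75th percentile of its array subtracted. Only probes that stood well above background on 4 or more of the 8 arrays entered, with the brightest probe standing for a gene, which left 42982 tested features. The two-sided test of NB minus NN used lmFit and eBayes from limma 3.58.1 (R 4.3.3). P-values were adjusted by Benjamini-Hochberg over all features, and 0.05 was the threshold. The number of arrays limits the precision.

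The genes and lists were chosen with earlier results of these data known. Named are all measured genes of the group, the 3 genes with the smallest p of each of 8 lists, and the 3 genes most like Mt1 and most like Fkbp5; genes named for following Tsc22d3, Mt1 or Fkbp5 were chosen after their values were seen. The fit was tested on simulated data (50 changed features per size, 11 false calls in all). Alternatives covered background correction, scaling, the value table, filters, probe summary, variance model, array weights, slide position and each array left out.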

Additional observations from a re-analysis of the deposited data

Results flagged for a closer look

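Among 114 sets of 4 arrays (genes named here, list means and the mean correlation of an array with the others, by genotype), 13 held an array far from the other 3 by Dixon's test, where chance alone flags about 1 in 20 sets, or 5.7. The mean correlation of NB 8 with the other 7 arrays was 0.9904, against 0.9929 to 0.9931 for the other NB arrays. Other values are log2 signals relative to the 75th percentile of the array. Sgk1 stood at 3.16 on NN 4, against 2.09 to 2.26 on the other NN arrays, and NN 4 was also the highest array for Tsc22d3 and Dusp1. The mean deviation of the 30 glucocorticoid-responsive genes was 0.30 on NB 8, against -0.19 to -0.12 on the other NB arrays.

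On NB 2, the acute phase genes Orm1 (5.89, against 6.68 to 6.81) and Serpina3n (6.50, against 7.18 to 7.31) were low, as were the mean deviations of the paralogs (-0.10, against 0.01 to 0.03) and of the cholangiocyte markers (-0.29, against 0.10 to 0.16). Saa3 was high on NN 7 (2.89, against 0.24 to 0.59), and so was Tsc22d2 (-0.85, against -1.09 to -1.07). Per3 was low on NN 4 (-2.27, against -2.08 on the others), as was the mean deviation of the metal handling genes (-0.14, against 0.02 to 0.04). Tsc22d1 was high on NN 1 (5.87, against 5.79). The mean deviation of the genes of glucocorticoid metabolism and transport was 0.03 on NB 8, against -0.05 on the other NB arrays.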

How the results depend on the processing

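None of the 9 genes was called under any of the 12 other settings or with any of the 8 arrays left out. The count of called features, 3, was 5 with probes averaged per gene, 2 to 4 under the other settings, and 2 to 3 with single arrays left out. The genotypes share no sample number, so the arrays could not be paired by sample. With the slide column as a block, which joins 1 array of each genotype, 0 of the 9 genes and 3 features were called, and the residual SD of Nr3c1 was 0.084 in place of 0.18, while those of Mt1 and Mt2 were 1.29 and 1.60 in place of 1.08 and 1.29. Under the settings other than leaving out an array, the log2 fold changes of the 9 genes kept their sign, between 0.75 and 0.91 for Mt1, 1.02 and 1.20 for Mt2 and -0.93 and -0.59 for Dusp1. With single arrays left out, they ranged from -0.021 to 0.14 for Nr3c1, -0.0090 to 0.087 for Zbtb16, 0.04 to 0.58 for Fkbp5, -0.63 to -0.29 for Tsc22d3, -0.49 to -0.03 for Sgk1, 0.24 to 1.24 for Mt1, 0.46 to 1.61 for Mt2, -1.02 to -0.34 for Dusp1 and -0.41 to -0.05 for Tat. Of the other named genes, 3 also turned in sign. Gm29942 was at -0.0373 with normexp, and with single arrays left out the ranges were -0.0974 to 0.139 for Gm29942, -0.914 to 0.154 for Egr1 and -0.044 to 0.14 for Trim24. With single arrays left out, the medians of the clock (-0.093 to 0.019) and immediate early genes (-0.072 to 0.022) also turned in sign, as did that of the 9 genes. Under the other settings the median of the metal handling genes turned in sign (-0.0086 to 0.036). The cause was not tested. The correlations of Mt1 with Mt2 (0.987 to 0.991) and of Tsc22d3 with Dusp1 (0.958 to 0.974) were close to the values given under normexp, quantile and median scaling and the value table, and so they were with single arrays left out (0.988 to 0.999 and 0.945 to 0.982). These last 2 checks were chosen after the data were seen.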
